A study of Mus musculus with 10 samples.

Results

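The genes of fatty acid uptake and oxidation were examined as 45 genes of 9 steps, chosen by name from the pathway with earlier results of these data known, and read by gene symbol on Affymetrix Mouse Gene 1.0 ST arrays of mouse skeletal muscle. Of these 45 genes, 43 had a feature among the 20736 features tested, where a feature is a gene symbol or a set of symbols that share a probe set. Cpt1b was read on a probe set shared with Gm44502, and Acsl1 and Ucp2 were not analysed here.

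The arrays come from a study of how adult fast fibers keep slow-type genes silent, and they hold a knockdown of linc-MYH, a long non-coding RNA made at the fast Myh gene cluster, and a conditional knockout line labelled cSix1 KO. In tibialis anterior (TA), 10 µg of plasmid was electroporated into muscles of mice labelled as C56BL6N (C57Bl6 in the methods) and 8 weeks old, and GFP-positive fibers were dissected 2 weeks later. The plasmid carried an shRNA that targets linc-MYH (shlinc-MYH) for 2 arrays, and for the other 2 a control vector, which the methods give as an shRNA against LacZ in the opposite leg. Gastrocnemius was measured in 3 samples of cSix1 KO, which carry floxed alleles and CRE under the human skeletal actin promoter so that the deletion takes place in skeletal fibers, and in 3 control samples labelled as wild type, all labelled C56BL6N and 8 weeks old. The TA arrays held dissected fibers 2 weeks after electroporation, and the gastrocnemius arrays whole muscle, so muscle, preparation and intervention cannot be told apart when the 2 comparisons are set side by side. The methods give electroporated muscles of different mice for each condition, without tying arrays to mice, and no source says whether the gastrocnemius arrays of a group came from separate animals, where the spread behind the p-values may be technical. The knockout and the knockdown were not checked here at the level of their targeted RNAs.

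Fatty acids enter a muscle fiber through membrane carriers after lipoprotein lipase frees them in the capillary, or are released from lipid droplets within the fiber. They are activated to acyl-CoA, carried into mitochondria by the carnitine shuttle, and shortened by the beta-oxidation spiral, whose electrons pass through the electron transfer flavoprotein to the respiratory chain. Slow and oxidative fibers rely on this supply more than fast glycolytic fibers, and the estrogen-related receptors and PPARs are transcription factors of its genes.

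No member passed the test in either muscle. In TA, 0 of 43 members had an adjusted p under 0.05 (limma, Benjamini-Hochberg over all features), where 0.0145% of all features did, and the lowest adjusted p was 0.432, for Pdk2. In gastrocnemius, 0 of 43 members passed, where 1.59% of all features did, and the lowest adjusted p was 0.122, for Eci1. The median log2 fold change of the members was -0.16 in TA (all features, -0.02) and 0.09 in gastrocnemius (all features, 0.01). Values below 0 were found for 31 of 43 members in TA, which is 72.1% against 56.1% of all features, and values above 0 for 29 of 43 in gastrocnemius, which is 67.4% against 52.9%.

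At an unadjusted p under 0.05, 10 members were lower in TA (4.32% of all features were) and 0 higher (4.22% of all features). The 10 became 1 without shlinc-MYH replicate 1, 3 and 6 without control replicates 1 and 2, 9 without shlinc-MYH replicate 2, and 5 by the methods' t-test. Both shlinc-MYH arrays lay below both control arrays for 21 members, or 48.8%, where 22.8% of all features were separated in this direction, and above both for 3 members, or 6.98%, against 16.2%. In gastrocnemius, 8 members were higher at an unadjusted p under 0.05 (8.42% of all features) and 1 was lower (6.46% of all features); after centring each array on its median these counts were 4 and 3. The 8 became 3 without control replicate 2, 5 without control replicate 3, cSix1 KO replicate 1 or cSix1 KO replicate 3, and 4 by the methods' t-test. All 3 cSix1 KO arrays lay above all controls for 9 members, or 20.9%, against 11.0% of all features, and below them for 1 member, or 2.33%, against 9.81%. The precision was limited by the number of arrays: the 95% interval of a member's log2 fold change reached a median of 0.31 to either side in TA and 0.21 in gastrocnemius.

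The members did not sit evenly on the arrays of a group. Relative to the control mean of each gene, the median of the 43 members was -0.25 on shlinc-MYH replicate 1 and -0.08 on replicate 2. In gastrocnemius it was -0.05, 0.06 and 0.18 on cSix1 KO replicates 1, 2 and 3, while the 3 controls ran from -0.06 to 0.07. The TA median was -0.08 without shlinc-MYH replicate 1 and the gastrocnemius median was 0.03 without cSix1 KO replicate 3.

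**Figure D1:**
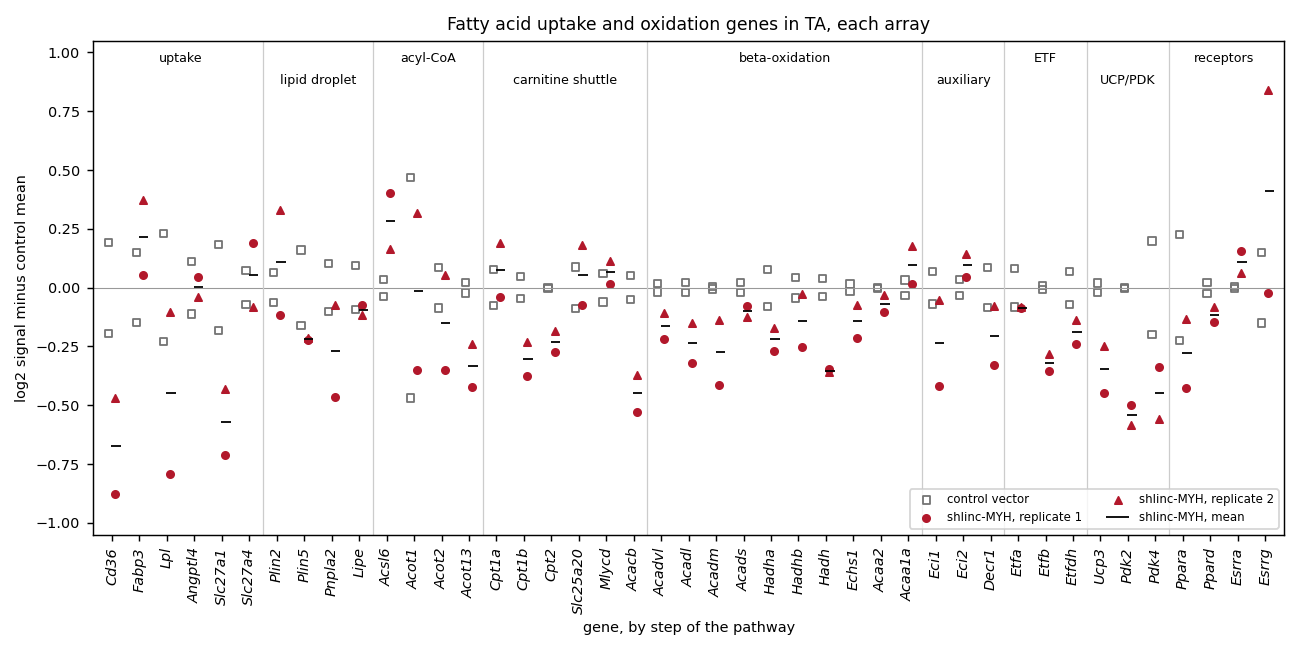
Log2 signal of each of the 43 measured members minus its control mean in TA (vertical axis), with the genes ordered by step (horizontal axis); open squares are the 2 control vector arrays, red circles and triangles are shlinc-MYH replicates 1 and 2, and black dashes are their mean. Most red symbols lie below 0, with the means of Cd36, Slc27a1 and Pdk2 furthest down, and for 21 members both lie below both squares.

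**Figure D2:**
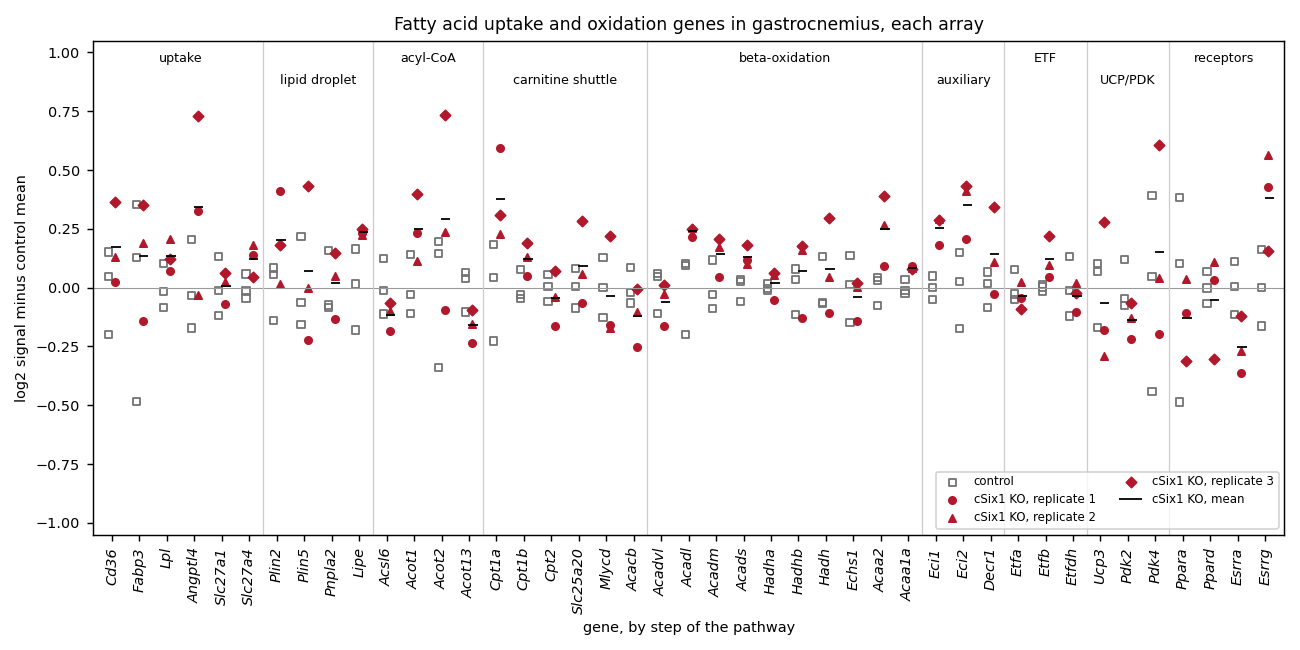
The same plot for gastrocnemius; open squares are the 3 control arrays, red circles, triangles and diamonds are cSix1 KO replicates 1, 2 and 3, and black dashes are their mean. Most means lie above 0, and for 9 members all red symbols lie above all squares.

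Uptake from blood held the members with the most negative values in TA. Cd36, the membrane carrier for long-chain fatty acids, had log2 signals of 10.86 and 10.48 on the control vector arrays and 9.79 and 10.20 on the shlinc-MYH arrays. Both shlinc-MYH arrays were below both controls, and the log2 fold change was -0.67 ± 0.20 (SE; 95% interval -1.15 to -0.20), which is 0.627 times the control signal, with an adjusted p of 0.503 (limma). Slc27a1 (FATP1), a fatty acid transport protein of the plasma membrane, had log2 signals of 6.16 and 5.79 in control and 5.26 and 5.54 with shlinc-MYH. Its arrays were separated in the same way, with a log2 fold change of -0.57 ± 0.17 and an adjusted p of 0.509.

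In gastrocnemius neither carrier was separated. Cd36 had log2 signals of 11.66, 11.41 and 11.76 in control and 11.63, 11.74 and 11.97 in cSix1 KO (log2 fold change 0.17 ± 0.12, adjusted p = 0.591, limma). Slc27a1 had 10.45, 10.20 and 10.31 in control and 10.25, 10.34 and 10.38 in cSix1 KO (0.01 ± 0.08, adjusted p = 0.989, limma). The other members of this step were Lpl, which frees fatty acids from lipoproteins, its inhibitor Angptl4, the binding protein Fabp3 and the transport protein Slc27a4. Their log2 fold changes ran from -0.45 ± 0.26 for Lpl to 0.21 ± 0.17 for Fabp3 in TA and from 0.12 to 0.34 in gastrocnemius, and their groups overlapped in both muscles. Fabp3 had 2 probe sets, and the one not used gave 0.18 in TA and 0.13 in gastrocnemius.

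Endothelial markers also had values below 0 in TA. All 11 markers of endothelial cells, which also make Cd36, had values below 0 in TA (median log2 fold change -0.53). Of these, 9 were separated below the controls, where 22.8% of all features were. Pecam1 had the most negative value, -0.83, and Cldn5 the least, -0.15, and 0 passed the test. Their summed linear signal was 51.7% and 79.8% of the control mean on the shlinc-MYH arrays, against 99.2% and 100.8% on the controls. It was lowest on shlinc-MYH replicate 1. Cd36, Lpl and Slc27a1 were also lowest there, and so was the median of all 43 members (-0.25, against -0.08 on replicate 2). In gastrocnemius the median of the same list was 0.06, with the cSix1 KO arrays between 99.4% and 110% of the control mean and the controls between 88.7% and 118%. No marker can be at 0 on this log2 scale, the part of endothelial RNA in the uptake genes was not tested, and fewer cells of a type cannot be told apart from less RNA per cell.

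Lipid droplet genes did not separate as a step. Lipe, the hormone-sensitive lipase, had log2 signals of 9.17, 8.82 and 9.02 in gastrocnemius controls and 9.24, 9.23 and 9.26 in cSix1 KO. The 3 cSix1 KO arrays were closely spaced and all above the controls, with a log2 fold change of 0.24 ± 0.09 and an adjusted p of 0.283 (limma). In TA its log2 signals were 6.22 and 6.03 in control and 6.05 and 6.01 with shlinc-MYH, which overlapped (-0.09 ± 0.12, adjusted p = 0.881, limma). Plin2, a coat protein of lipid droplets, overlapped in both muscles. It had log2 signals of 7.90 and 7.78 in control against 7.73 and 8.17 with shlinc-MYH (0.11 ± 0.17, adjusted p = 0.912, limma). In gastrocnemius it had 9.68, 9.87 and 9.90 in control against 10.23, 9.83 and 9.9999 in cSix1 KO (0.20 ± 0.11, adjusted p = 0.475, limma). The other 2 members, Plin5, a droplet coat protein of oxidative tissue, and Pnpla2, the first lipase of triglyceride breakdown, had log2 fold changes of -0.22 and -0.27 in TA and 0.07 and 0.02 in gastrocnemius. Plin5 was separated below the controls in TA (22.8% of all features were) and overlapped in gastrocnemius, and Pnpla2 overlapped in both muscles.

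Of the genes for acyl-CoA synthesis and hydrolysis, Acot13, a mitochondrial thioesterase, was the member with the largest statistic in TA. Its log2 signals were 9.18 and 9.23 in control and 8.78 and 8.97 with shlinc-MYH, separated, with a log2 fold change of -0.33 ± 0.12 and an adjusted p of 0.556 (limma). In gastrocnemius it had 10.24, 10.22 and 10.07 in control and 9.94, 10.02 and 10.08 in cSix1 KO, which overlapped by 1 array of each group (-0.16 ± 0.08, adjusted p = 0.385, limma), so its value was below 0 in both muscles. Acot1, a cytosolic thioesterase, had log2 signals of 3.75 and 2.81 in TA control and 2.93 and 3.60 with shlinc-MYH. These 4 arrays were widely spread within both groups (-0.02 ± 0.35, adjusted p = 0.999, limma). In gastrocnemius Acot1 had 5.91, 5.74 and 5.66 in control and 6.01, 5.88 and 6.17 in cSix1 KO (0.25 ± 0.10, adjusted p = 0.292, limma). Acot1 and its close paralog Acot2 (-0.15 in TA, 0.29 in gastrocnemius) may share probe signal, so neither value is certain for 1 gene.

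Acsl6, an acyl-CoA synthetase, had the highest value of this step in TA. Its log2 signals were 5.93 and 5.85 in control and 6.29 and 6.06 with shlinc-MYH, separated, with a log2 fold change of 0.28 ± 0.13. The gastrocnemius signals were 7.86, 7.96 and 8.10 in control and 7.79, 7.87 and 7.91 in cSix1 KO (-0.12 ± 0.08), which overlapped. The difference between the 2 changes was 0.40 ± 0.14 (unadjusted p = 0.0184, adjusted p = 0.308, limma).

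RefSeq promoter windows (GRCm38.p6, 250 bases before to 50 after the transcript start) were available for 39 of the 45 members and for 27025 genes in all, and were searched on both strands because estrogen-related receptors and PPARs are members of the list. The windows of Acot13, Cpt1b, Lpl, Acaa2, Angptl4 and Decr1 were not analysed here. The estrogen-related receptor element TCAAGGTCA was in the window of 1 member, Acsl6, and of 0.466% of all genes. Its core AAGGTCA, which the element contains, was in the windows of 3 members, Acsl6, Acadm and Acacb, which is 7.69% against 5.38% of all genes. The direct repeat of AGGTCA with 1 base between was in 0 member windows and 0.0481% of all genes. The matches of Acsl6 and Acadm are shown because these genes lay on opposite sides of 0 in TA; they are from the gene's own strand, and capitals mark the match, which reads on the opposite strand.
Acsl6, chr11:54303637-54303685, plus strand: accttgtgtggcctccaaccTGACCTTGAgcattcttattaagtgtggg
Acadm, chr3:153944866-153944893, minus strand: gTGACCTTcgggctccggtgacactggg
The Acsl6 match began 167 bases before the start and the Acadm match 249 bases before it. A second core lay in the Acsl6 window, 189 bases before the start, and the Acacb match lay after its start. A match is a run of letters and was not tested as a binding site.

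The carnitine shuttle and its malonyl-CoA control split by member. Acacb, the acetyl-CoA carboxylase whose malonyl-CoA restrains fatty acid entry into mitochondria, had log2 signals of 8.02 and 8.12 in TA control and 7.54 and 7.70 with shlinc-MYH. The arrays were separated, with a log2 fold change of -0.45 ± 0.12, which is 0.732 times the control signal, and an adjusted p of 0.484 (limma). In gastrocnemius it had 10.99, 10.84 and 10.88 in control and 10.65, 10.80 and 10.90 in cSix1 KO, which overlapped (-0.12 ± 0.08, adjusted p = 0.606, limma). Cpt1a, the carnitine palmitoyltransferase most abundant in liver, overlapped in TA, with log2 signals of 5.58 and 5.74 in control and 5.62 and 5.85 with shlinc-MYH (0.08 ± 0.14, adjusted p = 0.927, limma). In gastrocnemius it was separated, with 9.12, 8.84 and 9.25 in control and 9.67, 9.30 and 9.38 in cSix1 KO (0.38 ± 0.13, which is 1.30 times the control signal, adjusted p = 0.227, limma).

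Cpt1b is the muscle form of the same enzyme. Its log2 signals in TA were 8.72 and 8.62 in control and 8.29 and 8.44 with shlinc-MYH, which was separated (-0.30 ± 0.12). In gastrocnemius they were 12.05, 11.93 and 11.94 in control and 12.02, 12.10 and 12.16 in cSix1 KO, which overlapped (0.12 ± 0.07). Cpt2, which rebuilds acyl-CoA inside the mitochondrion, was separated in TA (-0.23 ± 0.11) and overlapped in gastrocnemius (-0.05 ± 0.08). Slc25a20, the carnitine exchanger, and Mlycd, which breaks down malonyl-CoA, had log2 fold changes between -0.04 and 0.09 over both muscles, and their groups overlapped.

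The beta-oxidation spiral was the step with the most genes. In TA, 9 of its 10 members had values below 0 (median log2 fold change -0.15), 8 were separated below the controls (22.8% of all features were), and Acaa1a, the peroxisomal thiolase, was the exception at 0.10. In gastrocnemius, 8 of 10 had values above 0 (median 0.08) and 4 were separated above the controls, where 11.0% of all features were (Acadl, Acads, Acaa2 and Acaa1a). Hadh, the short-chain hydroxyacyl-CoA dehydrogenase, had log2 signals of 8.18 and 8.26 in TA control and 7.87 and 7.86 with shlinc-MYH. The 2 shlinc-MYH arrays were almost equal and below both controls, with a log2 fold change of -0.35 ± 0.11 and an adjusted p of 0.526 (limma). In gastrocnemius Hadh had 11.77, 11.77 and 11.97 in control and 11.73, 11.88 and 12.13 in cSix1 KO, which overlapped (0.08 ± 0.11, adjusted p = 0.847, limma).

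Acaa2, the mitochondrial thiolase of the last reaction, had log2 signals of 11.56, 11.44 and 11.54 in gastrocnemius control and 11.61, 11.78 and 11.90 in cSix1 KO. All cSix1 KO arrays were above all controls, with a log2 fold change of 0.25 ± 0.09 and an adjusted p of 0.238 (limma). In TA it had 9.14 and 9.14 in control and 9.04 and 9.11 with shlinc-MYH, which was separated but small (-0.07 ± 0.11, adjusted p = 0.918, limma). The acyl-CoA dehydrogenases of the first reaction act on very long (Acadvl), long (Acadl), medium (Acadm) and short chains (Acads). All 4 were separated below the controls in TA (22.8% of all features were), with log2 fold changes from -0.27 for Acadm to -0.10 for Acads. In gastrocnemius they ran from -0.06 for Acadvl to 0.24 for Acadl. Hadha and Hadhb, the subunits of the trifunctional protein, and Echs1, the short-chain hydratase, had values from -0.22 to -0.14 in TA and from -0.04 to 0.07 in gastrocnemius. The probe set of Hadhb that was not used gave -0.14 and 0.06.

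The auxiliary enzymes, which handle the double bonds of unsaturated fatty acids, held the lowest adjusted p values of the members in gastrocnemius. Eci1, the mitochondrial enoyl-CoA isomerase, had log2 signals of 10.56, 10.45 and 10.51 in control and 10.69, 10.80 and 10.79 in cSix1 KO. The groups were separated, with a log2 fold change of 0.25 ± 0.07, which is 1.19 times the control signal (95% interval of the log2 value 0.10 to 0.41, adjusted p = 0.122, limma). Eci2, the isomerase found also in peroxisomes, had 9.05, 8.85 and 9.18 in control and 9.23, 9.44 and 9.46 in cSix1 KO. It was separated too (0.35 ± 0.10, which is 1.27 times the control signal, adjusted p = 0.160, limma).

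In TA these isomerases did not share a side. Eci1 had log2 signals of 7.33 and 7.47 in control and 6.98 and 7.35 with shlinc-MYH, which overlapped (-0.24 ± 0.16, adjusted p = 0.734, limma). Eci2 had 7.41 and 7.48 in control and 7.49 and 7.59 with shlinc-MYH, both above the controls by little (0.09 ± 0.12, adjusted p = 0.869, limma). Decr1, the dienoyl-CoA reductase, had log2 fold changes of -0.20 in TA and 0.14 in gastrocnemius, and its groups overlapped.

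All 3 genes of the electron transfer flavoprotein pathway had values below 0 in TA. Etfb, the beta subunit, had log2 signals of 9.99 and 9.97 in control and 9.63 and 9.70 with shlinc-MYH. The pairs lay far apart relative to their own spread, with a log2 fold change of -0.32 ± 0.11 and an adjusted p of 0.543 (limma). In gastrocnemius it had 11.83, 11.84 and 11.81 in control and 11.87, 11.92 and 12.04 in cSix1 KO, separated upward (0.12 ± 0.07, adjusted p = 0.490, limma). Etfdh, the oxidoreductase that passes the electrons to ubiquinone, had 8.98 and 9.12 in TA control and 8.81 and 8.91 with shlinc-MYH. It was separated below the controls (-0.19 ± 0.12, adjusted p = 0.724, limma), while in gastrocnemius it had 10.89, 10.64 and 10.74 in control and 10.65, 10.78 and 10.73 in cSix1 KO, which overlapped (-0.04 ± 0.08, adjusted p = 0.916, limma). Etfa, the alpha subunit, had values of -0.08 and -0.04.

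Fuel switch genes were the step with the most negative median in TA, -0.45, and all 3 measured members were separated below the controls (22.8% of all features were). Pdk2, a kinase that switches off pyruvate dehydrogenase and so spares glucose, had log2 signals of 9.49 and 9.50 in control and 8.998 and 8.91 with shlinc-MYH. Its log2 fold change was -0.54 ± 0.11 (95% interval -0.82 to -0.26), which is 0.687 times the control signal, with an adjusted p of 0.432 (limma). With all 10 arrays in 1 fit, which shares the spread of both muscles, Pdk2 passed in TA (adjusted p = 0.0427, limma), the 1 member to do so in any fit that was run. The gastrocnemius signals were 12.41, 12.61 and 12.44 in control and 12.27, 12.36 and 12.42 in cSix1 KO, which overlapped (-0.14 ± 0.08, adjusted p = 0.499, limma).

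Ucp3, an uncoupling protein of muscle mitochondria, had log2 signals of 9.16 and 9.20 in TA control and 8.73 and 8.93 with shlinc-MYH, a log2 fold change of -0.35 ± 0.13 (adjusted p = 0.546, limma). The gastrocnemius signals were 10.91, 10.64 and 10.88 in control and 10.63, 10.52 and 11.09 in cSix1 KO, with the KO group spread across the controls (-0.06 ± 0.15, adjusted p = 0.919, limma). Pdk4, the kinase induced by fasting, had a log2 fold change of -0.45 ± 0.17 in TA. In gastrocnemius it was the member with the widest interval, with log2 signals of 12.52, 12.03 and 12.87 in control and 12.27, 12.52 and 13.08 in cSix1 KO (0.15 ± 0.25).

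Among the nuclear receptors, Esrra and Esrrg had different patterns. Esrra (ERRα) had log2 signals of 8.55, 8.66 and 8.43 in gastrocnemius control and 8.19, 8.28 and 8.43 in cSix1 KO. All cSix1 KO arrays were below the controls, the third by less than 0.01, with a log2 fold change of -0.25 ± 0.09 (adjusted p = 0.246, limma), and it was the 1 member separated in this direction. In TA it had 5.69 and 5.70 in control and 5.85 and 5.76 with shlinc-MYH, both above the controls (0.11 ± 0.12, adjusted p = 0.847, limma). Esrrg (ERRγ), which is enriched in oxidative fibers, had 8.63, 8.46 and 8.30 in gastrocnemius control and 8.89, 9.03 and 8.62 in cSix1 KO. Its groups overlapped by 1 array (0.38 ± 0.12, which is 1.30 times the control signal, adjusted p = 0.198, limma). In TA it had 6.63 and 6.33 in control and 6.46 and 7.32 with shlinc-MYH, where replicate 2 alone stood above (0.41 ± 0.28, adjusted p = 0.742, limma). Ppara and Ppard, the PPARs of oxidative tissue, had log2 fold changes of -0.28 and -0.11 in TA and -0.13 and -0.05 in gastrocnemius. Ppard was separated below the controls in TA (22.8% of all features were) and overlapped in gastrocnemius, and Ppara overlapped in both muscles.

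The difference between the 2 changes (TA minus gastrocnemius) was tested in 1 fit of all 10 arrays. That fit uses 1 estimate of each gene's spread for both muscles, and how far the differences rest on this was not tested. The difference passed for 0 of 43 members, where 0.149% of all features passed, and the lowest adjusted p was 0.194, for Etfb (-0.44 ± 0.12, limma). The median difference was -0.26, against -0.03 for all features. By sign alone, 20 members were below 0 in TA and above 0 in gastrocnemius, 3 the reverse, 9 above 0 in both and 11 below 0 in both. At an unadjusted p under 0.05, the TA change was the lower one for 12 members (7.06% of all features), which were Cd36, Lpl, Slc27a1, Cpt1b, Acacb, Acadl, Acadm, Hadh, Acaa2, Eci1, Etfb and Pdk2. It was the higher one for 2 members (5.20% of all features), Acsl6 and Esrra. After centring each array on its median these counts were 8 and 2, and the median difference was -0.18. Without gastrocnemius control replicate 2 the counts were 8 and 1. The median difference was -0.19 without shlinc-MYH replicate 1.

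These 12 members did not reach the difference in 1 way. Acadl, Acaa2 and Etfb were separated below the controls in TA and above them in gastrocnemius. So was Acads, which is not one of the 12 (unadjusted p of the difference 0.0591, limma). The TA values of Acaa2 (-0.07) and Acads (-0.10) were small. Of all features, 22.8% were separated below the controls in TA and 11.0% above them in gastrocnemius, and the share with both was not counted. Cd36 and Slc27a1 had the larger part of their differences (-0.85 ± 0.23 and -0.58 ± 0.18) in TA. Acacb and Pdk2 had values below 0 in both muscles, and Eci1 overlapped in TA and was separated above the controls in gastrocnemius. Opposite signs between the muscles were therefore seen as values of single genes, and none of them passed the test of the difference.

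**Figure D3:**
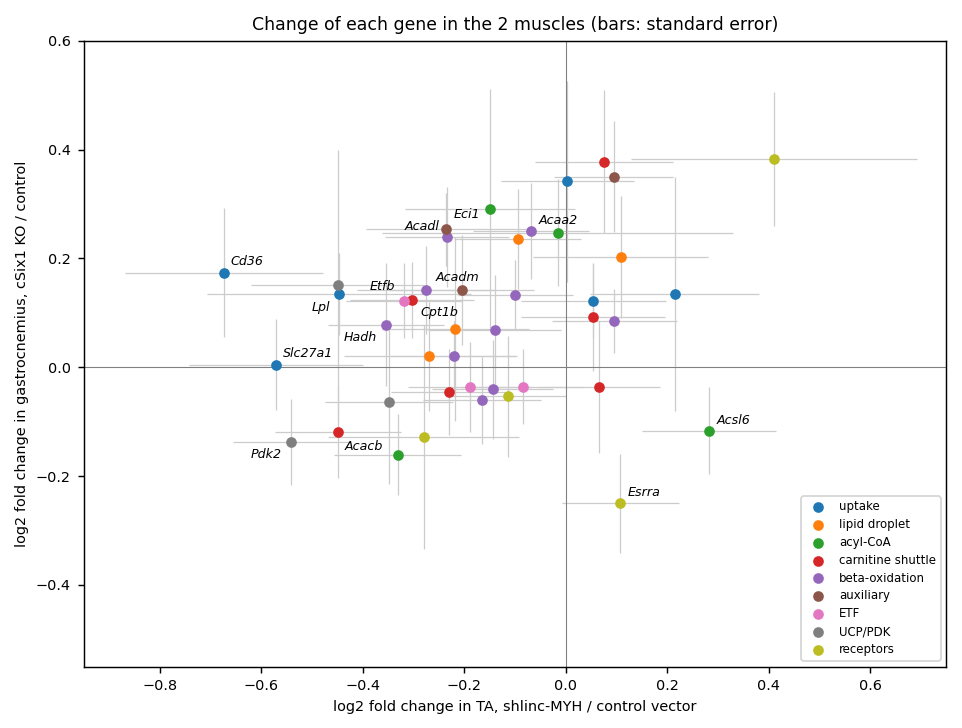
Log2 fold change of each measured member in TA (horizontal axis) and in gastrocnemius (vertical axis), coloured by step, with bars of 1 standard error; names mark the 14 members whose changes differed at an unadjusted p under 0.05. The upper left holds 20 members and the lower right 3, and no member passed the test of the difference.

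Other genes of lipid metabolism were read from a list of 74 genes around the members, of which 71 were measured. Of the 71, 44 had values below 0 in TA. There 28 were separated below the controls (22.8% of all features were) and 9 above them (16.2% of all features). In TA, 0 passed (median log2 fold change -0.10), and the largest statistics, none passing, were those of Scd2 (-0.86 ± 0.13, adjusted p = 0.232, limma) and Pdp1 (-0.45 ± 0.12) below 0 and of Prkaa1 (0.44 ± 0.12) and Pdk3 (0.41 ± 0.13) above it. In gastrocnemius, 3 fell and 0 rose (median 0.01). Rxrg, a retinoid X receptor, had log2 signals of 10.93, 11.04 and 10.77 in control and 9.77, 10.12 and 10.16 in cSix1 KO, and it fell by 0.90 on the log2 scale (SE 0.12, adjusted p = 0.0151, limma). Acsl4, an acyl-CoA synthetase that prefers arachidonic acid, had 8.82, 9.12 and 9.11 in control and 8.36, 8.34 and 8.34 in cSix1 KO, and it fell by 0.67 (SE 0.09, adjusted p = 0.0158, limma). Prkag3, a regulatory subunit of AMP-activated kinase found in fast fibers, had 10.38, 10.88 and 11.13 in control and 9.35, 9.40 and 9.86 in cSix1 KO, and it fell by 1.26 (SE 0.20, adjusted p = 0.0297, limma). Each of these 3 lost its call in some fits without 1 array, Acsl4 and Prkag3 in 4 of 6 and Rxrg in 3 of 6, with adjusted p values up to 0.0751, 0.132 and 0.0701.

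The 2 largest statistics above 0 in gastrocnemius were those of Scd2, a fatty acid desaturase (0.64 ± 0.13, adjusted p = 0.0641, limma), and G0s2, an inhibitor of Pnpla2 (0.37 ± 0.10, adjusted p = 0.145, limma). Scd2 was the 1 gene of the list whose changes differed between the muscles (-1.50 ± 0.20, adjusted p = 0.0215, limma). It had log2 signals of 5.56 and 5.78 in TA control and 4.79 and 4.83 with shlinc-MYH, against 9.53, 9.42 and 9.52 in gastrocnemius control and 10.27, 10.33 and 9.81 in cSix1 KO. Without 1 array the adjusted p of this difference was up to 0.0841, and it was above the threshold in 6 of 10 such fits.

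Genes of mitochondrial content did not follow the members in gastrocnemius. Of 11 such genes, 10 were measured, and 0 passed in either muscle. Their median log2 fold change was -0.07 in TA and -0.09 in gastrocnemius, where 9 of 10 were below 0. In TA 7 of 10 were below 0. Of the 10, 5 were separated below the TA controls (22.8% of all features were) and 1 above them (16.2% of all features). Vdac1, the outer membrane channel, had the largest negative statistic in both muscles (-0.26 in TA, -0.20 in gastrocnemius), and Tfam, the mitochondrial DNA packaging factor, had the largest value in TA, 0.40, with overlapping groups.

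Several lists of markers of other cells and of fiber type moved with the groups, but not all of them in both muscles. In gastrocnemius, all 9 macrophage markers had values above 0 (median log2 fold change 0.73), from C1qa at 0.25 to Cd68 at 0.94. Of these, 8 were separated above the controls (11.0% of all features were), and Mrc1 rose by 0.77 (adjusted p = 0.0148, limma). Their summed signal was 133% to 213% of the control mean in cSix1 KO and 88.8% to 107% in control. It was highest on cSix1 KO replicate 1, where the members had the lowest median of the 3. Macrophages also use Cd36, Lpl and Plin2, and the part of macrophage RNA in these values was not tested.

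Of the 10 adipocyte markers, 8 were measured, and their summed signal was 80.4% and 81.2% of the control mean on the shlinc-MYH arrays and 97.4% to 130% on the cSix1 KO arrays (controls 92.1% to 114%). The TA sum weighed mostly Fabp4, by far the brightest of the 8 there (control mean 10.10, log2 fold change -0.44). The median log2 fold change of the list in TA was -0.08, from Fabp4 to Cidea. All 8 had values above 0 in gastrocnemius (median 0.30), from Adig at 0.09 to Cidea at 0.41. Lipe and Plin2 are also adipocyte genes, and the part of adipocyte RNA in their values was not tested. Cidea, a lipid droplet protein of brown fat, rose in gastrocnemius (adjusted p = 0.0454, limma) and had a log2 fold change of 1.31 in TA (adjusted p = 0.0684). Its control means lay below the array medians in both muscles.

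All 7 slow fiber genes rose in gastrocnemius (median 1.07, from Myl3 at 0.72 to Tnnc1 at 1.40), and in TA 0 of 7 passed (median 0.76, from Myh7 at -0.33 to Tnnt1 at 2.76). In TA 4 of the 7 were separated above the controls (16.2% of all features were). Their summed signal there was 240% and 241% of the control mean with shlinc-MYH, against 74.5% and 126% on the controls. None of the 8 fast fiber genes passed in either muscle (medians -0.08 and -0.13), with Pvalb lowest in gastrocnemius at -0.41 and Myh4 lowest in TA at -0.34. In gastrocnemius 7 of the 8 were separated below the controls (9.81% of all features were) and 1 above them (11.0%). In TA 3 were separated below the controls, where 22.8% of all features were. The 5 muscle-defining genes Ckm, Acta1, Mb, Ttn and Des had control means of 10.4 to 12.7 in TA and 13.0 to 14.0 in gastrocnemius. Array medians over all probe sets ran from 5.09 to 5.14 in TA and from 6.60 to 6.67 in gastrocnemius, so no level was compared between the muscles. The TA control means of Slc27a1 (5.97), Acads (5.59), Cpt1a (5.66), Esrra (5.70), Acsl6 (5.89) and Scd2 (5.67) were not far above the TA medians. Other members were dimmer still in TA, among them Angptl4 (5.20), Ppara (5.32), Plin5 (5.36) and Mlycd (5.53). Acot1 lay below the array medians in TA (control mean 3.28) and in gastrocnemius (5.77). The part of background in such dim signals was not tested.

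**Figure D4:**
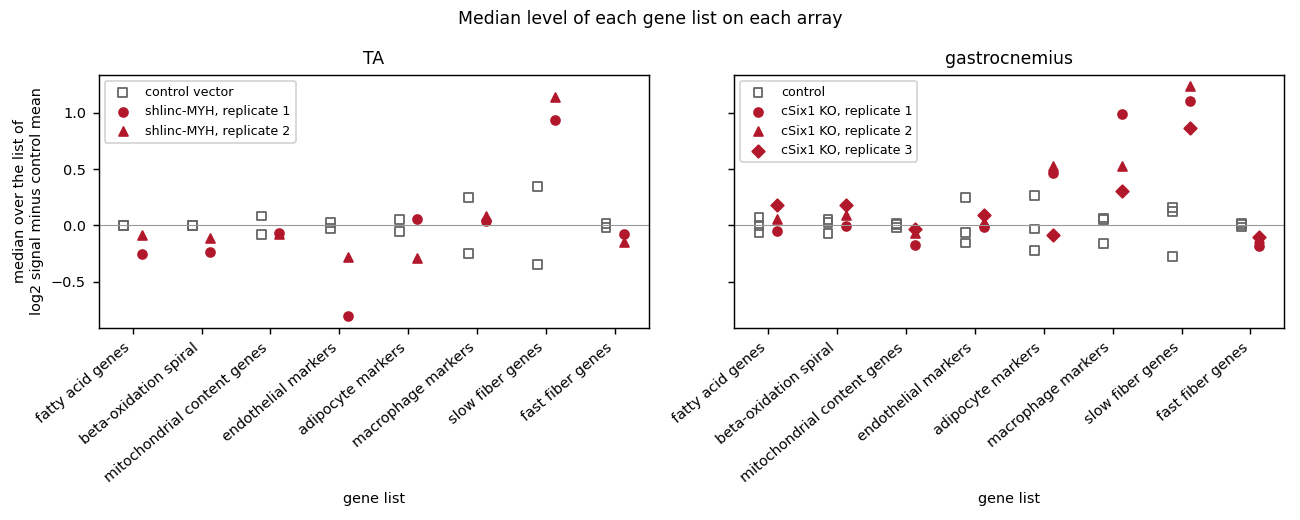
Median deviation of each list's genes from their control means, in log2 signal, on each array (vertical axis), with the lists along the horizontal axis, for TA on the left and gastrocnemius on the right; open squares are controls and red symbols the shlinc-MYH or cSix1 KO replicates. The fatty acid genes lie between -0.25 and 0.18, while the endothelial markers reach -0.81 in TA, the macrophage markers 0.99 in gastrocnemius and the slow fiber genes 1.24.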

How the data were processed

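RNA of mouse TA and gastrocnemius muscle was hybridised to 10 arrays. The authors deposited log2 signals of each probe set on each array, which they had made by RMA (in R per the methods; RMA and Partek per the submitters' processing notes, versions not given). Labels and methods differ on the RNA amplification kit and RNA amount and on the age of electroporated mice. Whether both muscles were normalized together is not stated. Bright signals are compressed on such arrays, and RMA hides any change common to every gene.

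The table had 35556 probe sets and 0 missing values. By the platform annotation, 21797 probe sets had 1 gene symbol, 1613 several and 12146 none. Where several probe sets carried the same symbols, the brightest on average was kept, giving 20736 features, of which 790 were shared. A separate model for each muscle was fitted in R 4.3.3 by lmFit and eBayes of limma 3.58.1 (two-sided), and the difference of the changes as a contrast in 1 fit of all 10 arrays, with Benjamini-Hochberg adjustment over all features and a threshold of 0.05. Scripts were tested on simulated data. Arrays give no read depth, so the number of arrays limits the precision. Replicates of a group correlated at 0.989 or more over all features, and no pair was identical.

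Named members were the 2 of each step with the largest statistic in either muscle. From the other lists the genes that passed were named, or the 2 with the largest statistics, and Acsl6, Cpt1b and Pdk4 were given per array after their values were seen. The members and lists were chosen with earlier results of these data known. Alternatives covered normalization, shared and multiple probe sets, dim features, the arrays fitted, the variance model, the methods' t-test, a replicate block and leaving out each array. No set test was run.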

Additional observations from a re-analysis of the deposited data

Results flagged for a closer look

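Scd2, a fatty acid desaturase of the wider lipid list, was set apart because its changes in the 2 muscles differed by the test of the difference itself. The change in TA minus the change in gastrocnemius was -1.50 on the log2 scale (SE 0.20, adjusted p = 0.0215, limma), from -0.86 in TA and 0.64 in gastrocnemius, and each group was separated from its control. Cidea, from the adipocyte marker list, was set apart by the same test at 0.90 (SE 0.13, adjusted p = 0.0288, limma), from 1.31 in TA and 0.41 in gastrocnemius. Its log2 signals were 4.79 and 4.70 in TA control, 5.99 and 6.13 with shlinc-MYH, 5.48, 5.27 and 5.31 in gastrocnemius control and 5.80, 5.76 and 5.72 in cSix1 KO. Its control means, 4.75 in TA and 5.35 in gastrocnemius, lay below the array medians of both muscles. The part of background in its signal was not tested. Calls of marker genes, Cidea among them, were not followed through the alternative fits. No member of the fatty acid list passed the test of the difference.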

How the results depend on the processing

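No member passed in any fit of gastrocnemius or of the difference, and in TA 1 member did, Pdk2 (-0.54, adjusted p = 0.0427), with all 10 arrays in 1 fit. No source says that a replicate number marks a shared animal or day. Same-number arrays correlated at 0.22, -0.14 and 0.08 in gastrocnemius, where not every array correlated best with its own number. In TA each array did so, at 0.20, which is 1 value because both groups hold 2 arrays, so pairing there was not settled. A replicate block gave 0 members passing in each comparison, with 5 features passing in TA, 172 in gastrocnemius and 24 in the difference, against 3, 330 and 31 without it. In TA, 132 features passed with all arrays in 1 fit and 0 by the methods' t-test or without any 1 array; in gastrocnemius 546 passed with an intensity trend, 4 by the methods' t-test and 49 to 575 without 1 array; in the difference 17 passed with dimmer features left out and 6 to 94 without 1 array. The lowest adjusted p of a member in gastrocnemius ran from 0.0611 to 0.360 over all fits.

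Without 1 array, the median of the members was -0.25 to -0.08 in TA, 0.03 to 0.16 in gastrocnemius and -0.32 to -0.19 for the difference. Members below 0 in gastrocnemius numbered 9 (without control replicate 1) to 19 (without cSix1 KO replicate 3), against 14 with all arrays. At an unadjusted p under 0.05, the 10 members lower in TA became 1 to 9 without 1 array, and the 8 higher in gastrocnemius became 3 to 8. By the methods' t-test the adjusted p was 0.163 for Acsl4, 0.178 for Rxrg and 0.223 for Prkag3.

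Signs that turned belonged to members near 0 or spread widely, and none of these had passed. Acot1 in TA was 0.041 after quantile normalization and 0.016 after centring, and Slc27a1, Pnpla2 and Hadha in gastrocnemius were -0.042, -0.027 and -0.026 after centring. Without 1 array, the TA values ran from -0.11 to 0.11 for Angptl4, -0.082 to 0.19 for Slc27a4, -0.11 to 0.33 for Plin2, -0.48 to 0.45 for Acot1, -0.35 to 0.052 for Acot2, -0.038 to 0.19 for Cpt1a, -0.074 to 0.18 for Slc25a20 and -0.021 to 0.84 for Esrrg. Those in gastrocnemius ran from -0.11 to 0.31 for Fabp3, -0.055 to 0.071 for Slc27a1, -0.11 to 0.22 for Plin5, -0.043 to 0.10 for Pnpla2, -0.10 to 0.014 for Cpt2, -0.0031 to 0.17 for Slc25a20, -0.17 to 0.031 for Mlycd, -0.032 to 0.17 for Hadh, -0.11 to 0.027 for Echs1, -0.066 to 0.0022 for Etfa, -0.096 to 0.030 for Etfdh, -0.24 to 0.050 for Ucp3, -0.078 to 0.35 for Pdk4, -0.37 to 0.063 for Ppara and -0.14 to 0.072 for Ppard. The cause was not tested. With 1 sample left in a TA group, that sample was assumed to vary like the other group. The limits are the number of arrays and the signal compression of bright probe sets. Differences smaller than the intervals given were not detectable, and larger ones could also fail, because the intervals are not adjusted for the number of features. In TA, Pdk2 at -0.54 (interval -0.82 to -0.26) had an adjusted p of 0.432 (limma). Scd2 at -0.86 (interval -1.17 to -0.55) had an adjusted p of 0.232 there (limma).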
